A study of Homo sapiens with 4 samples.

Results

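Very long genes were defined as protein-coding genes of the GENCODE release 29 annotation that span more than 500000 bp between their first and last base and hold at least 20 counts summed over the 4 RNA-seq samples. RELN and the genes whose symbols begin with TENM, ADGRL or COL were left out by name. Of 317 annotated genes of this span, 311 were listed among the 57905 genes of the count data. 239 of these reached the count minimum, 5 were left out by name, and 234 remained. Of the genes not left out by name, a further 70 lay under the count minimum. The genes were thus chosen by their annotated span and selected on their summed counts, which are therefore no findings here. SPOCK3, at 501413 bp, lay just inside the span limit and DIAPH3, at 498405 bp, just outside. RALYL, with 21 counts, lay just inside the count limit, and DEC1, with 19, just outside.

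The cells were U87MG, an established human glioblastoma cell line that the labels list as wild type. The 2 control samples were left untreated, and the 2 chaetocin samples received 50 nM chaetocin, dissolved in DMSO, for 24 h. Chaetocin is a fungal metabolite known as an inhibitor of histone lysine methyltransferases. Since the labels give the controls no DMSO, the effects of agent and solvent cannot be told apart. The labels do not say that samples of a group came from separate cultures, so p-values measure the spread between these samples, which may be technical. The question addressed here was which very long genes moved under chaetocin, in each treated sample, with or against the change that genes of their span showed.

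Very long genes owe their size to introns. RNA polymerase II has to travel the whole span to finish a transcript, which makes these genes slow to express and sensitive to anything that hinders elongation, such as loss of topoisomerase activity. Many encode synaptic, adhesion and guidance proteins of the nervous system, and several lie at common fragile sites, regions that break when replication is slowed. In the annotation the 234 genes had a median span of 690 kb and ranged from 501 kb to 2300 kb. Their median exonic length was 10747 bp in 28 exons, so that exons made up 1.41% of the span at the median. Tested protein-coding genes of any span had medians of 34.6 kb, 5197 bp, 11 exons and 15.0%. The longest stretch without an exon had a median of 171 kb in the very long genes. 44 of them spanned more than 1 Mb, and 5 lay on chromosome X. 227 had at least 1 other gene inside their span, with a median of 4. Exons of 6 overlapped an exon of another gene on the same strand, and those of 35 an exon on the other strand, so that counts there may be shared.

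Promoter sequences are shown for 3 very long genes, those of smallest p in each direction that the RefSeq promoter table held. They are CSMD2, which fell, SORCS1, which was called higher, and RGS6, which ranked next among the genes with higher counts but did not pass the test. NEGR1, the gene of smallest p among those that fell, had no entry. Each window runs from 250 bases before the RefSeq start to 50 bases after it, 5′ to 3′ on the strand of the gene, on GRCh38.p14, with CpG dinucleotides in capitals. The windows are chr1:34165793-34166092 on the minus strand for CSMD2, chr10:107164657-107164956 on the minus strand for SORCS1 and chr14:71932972-71933271 on the plus strand for RGS6.
CSMD2: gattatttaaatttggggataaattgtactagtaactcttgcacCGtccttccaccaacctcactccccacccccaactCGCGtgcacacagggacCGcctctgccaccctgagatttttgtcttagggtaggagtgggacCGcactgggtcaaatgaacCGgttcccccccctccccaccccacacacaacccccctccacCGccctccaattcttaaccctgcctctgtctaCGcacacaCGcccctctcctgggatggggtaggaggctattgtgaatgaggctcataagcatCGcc
SORCS1: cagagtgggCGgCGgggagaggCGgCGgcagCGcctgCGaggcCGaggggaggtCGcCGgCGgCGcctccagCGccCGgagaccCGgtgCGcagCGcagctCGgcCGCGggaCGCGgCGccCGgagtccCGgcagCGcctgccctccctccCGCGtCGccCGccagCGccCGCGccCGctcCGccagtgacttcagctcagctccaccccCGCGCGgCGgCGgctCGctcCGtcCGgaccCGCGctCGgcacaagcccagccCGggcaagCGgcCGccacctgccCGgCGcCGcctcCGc
RGS6: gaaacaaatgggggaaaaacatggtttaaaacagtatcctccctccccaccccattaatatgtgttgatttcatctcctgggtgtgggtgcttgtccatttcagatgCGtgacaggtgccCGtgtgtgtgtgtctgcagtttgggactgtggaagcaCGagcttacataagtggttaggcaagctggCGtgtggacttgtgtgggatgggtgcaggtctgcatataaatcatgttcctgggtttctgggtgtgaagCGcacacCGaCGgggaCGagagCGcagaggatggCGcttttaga
The CSMD2 and RGS6 windows held 10 CpG dinucleotides each, and the SORCS1 window held 52, with a GC content of 82.3%. A promoter entry was found for 193 of the 234 genes. Their windows had a median GC content of 64.3% and 20 CpG dinucleotides, against 58.3% and 14 over all 27305 promoters. On either strand, the TATA box letters TATAAA stood in 8.29% of the windows of very long genes and in 12.0% of all promoters. CCAAT stood in 30.1% against 35.7%. The core of the antioxidant response element, TGACNNNGC, stood in 16.6% against 13.6%, and the AP-1 letters TGACTCA, which can overlap it, in 1.55% against 4.92%. These matches describe letters only. RefSeq gives 1 start per gene here, and long genes can have several.

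Very long genes took a small share of all counts. Their share of the counts was 0.773% and 0.748% in the untreated cells, and after chaetocin 0.619% and 0.662%. On the normalized scale of CPM, the counts of a gene scaled to a common library size, they summed to 8200 and 7900 CPM in the controls and to 6040 and 6080 CPM after chaetocin. Both chaetocin samples were thus below both controls. PRKCA alone held 8.95% of the CPM of these genes, and the 20 with the highest levels held 50.8%, so the sum follows few genes. In bulk RNA, fewer expressing cells and less RNA per cell cannot be told apart.

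Of the 234 genes, 226 passed the filter on low counts and were tested among 16416 genes. In 16 of the 226, SORCS1, CNTNAP2 and MACROD2 among them, both chaetocin samples and neither control reached the cutoff of the filter. In 0 genes both controls and neither chaetocin sample did. These 16 are said here to have passed only through the chaetocin samples. A gene with a single control at the cutoff, such as MYO16, also needed a chaetocin sample to pass and is not counted in the 16. A gene that enters through the group where it is high has to differ, so higher values of these 16 and of genes such as MYO16 are given as a description only. The 8 that were not tested included KIRREL3, MYT1L, RALYL, ST6GALNAC3, SYN3 and TRHDE. TRHDE had 0 and 0 counts in the controls and 3 and 26 after chaetocin.

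Under chaetocin 6 very long genes, NEGR1, ANK2, SEMA5A, CSMD2, PRKCA and SBF2, fell at an adjusted p under 0.05 (edgeR's quasi-likelihood test, adjusted over all genes tested). The 6 are 2.65% of the 226, beside 0.743% of all genes tested and 2.58% of the protein-coding genes of 200 to 500 kb. The 1 gene called higher, SORCS1 (0.442%, beside 1.11% of all genes tested), is 1 of the 16 that passed the filter only through the chaetocin samples. Without chaetocin sample 1, 41 were called lower (17.8%, beside 9.48% of all genes) and 14 higher (6.09%, beside 7.55%). Without chaetocin sample 2, 33 were called lower (14.7%, beside 5.59%) and 2 higher (0.889%, beside 4.23%). These fits take the lone chaetocin sample to vary like the controls, whose spread is then the only one measured, so their counts are no stronger evidence than the 6 and 1. At an unadjusted p under 0.05, 47 were lower (20.8%, beside 9.43% of all genes) and 20 higher (8.85%, beside 10.9%). Irrespective of the test, both chaetocin samples lay below both controls for 85 very long genes (37.6%, beside 26.0% of all genes and 40.4% of the protein-coding genes of 200 to 500 kb) and above both for 53 (23.5%, beside 26.8%), the 16 included.

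NEGR1, a cell adhesion molecule of the immunoglobulin family anchored in the neuronal membrane, spans chr1:71395940-72282734 on GRCh38. It stood at 28.3 and 27.0 CPM in the controls and at 11.2 and 10.1 CPM after chaetocin. The groups were far apart, and the log2 fold change was -1.38 ± 0.17 (SE, n = 2 per group), with an adjusted p of 0.0262 by edgeR's quasi-likelihood test. ANK2, which encodes the membrane adaptor ankyrin-B (chr4:112818109-113383740), went from 59.4 and 72.9 CPM to 24.0 and 30.4 CPM. Its log2 fold change was -1.28 ± 0.18 (adjusted p = 0.0279). SEMA5A, a transmembrane semaphorin that guides axons (chr5:9035026-9546075), had 87.8 and 79.1 CPM in the controls and 39.6 and 29.9 CPM after chaetocin. Its log2 fold change was -1.27 ± 0.18 (adjusted p = 0.0279). CSMD2, a large membrane protein with CUB and sushi domains (chr1:33513999-34165842), had 159 and 151 CPM against 75.1 and 65.6 CPM. Its log2 fold change was -1.14 ± 0.15 (adjusted p = 0.0266). In these 4 genes the 2 chaetocin samples lay near each other and well under the controls, and the call held in each alternative that gave a p.

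PRKCA, the kinase protein kinase C alpha (chr17:66302636-66810743), had the highest level per exon length of the very long genes, 56.6 CPM per exonic kb. It stood at 972 and 738 CPM in the controls and at 431 and 386 CPM after chaetocin, so the controls differed more from each other than the treated samples did. The log2 fold change was -1.07 ± 0.20 (adjusted p = 0.0412), and the call was lost without control sample 1 (adjusted p = 0.140, with a range of 9.8e-07 to 0.140 over the alternatives). SBF2, a regulator of membrane traffic related to myotubularins (chr11:9778667-10294207), had 66.9 and 66.1 CPM in the controls and 35.0 and 40.6 CPM after chaetocin. Its log2 fold change was -0.81 ± 0.15 (adjusted p = 0.0413). That call was lost without control sample 1 (adjusted p = 0.132) and without control sample 2 (adjusted p = 0.0945), with a range of 0.000270 to 0.132 over the alternatives. Exons of NEGR1 and SBF2 overlap those of the antisense genes ZRANB2-AS2 and SBF2-AS1, and the strand setting of the counting is not given in the sources used here. Among genes named below, CDH13, KCNMA1, ADGRV1, EYS and DLGAP2 also have exons that overlap those of a gene on the other strand.

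SORCS1, a sorting receptor of the VPS10 family (chr10:106573663-107164534), was the very long gene called higher. It passed the filter only through the chaetocin samples, so its values are a description. It had 7 and 6 counts in the controls and 42 and 101 counts after chaetocin, or 0.287 and 0.209 CPM against 1.93 and 2.84 CPM. Both treated samples were several times above both controls, at a level that stayed low. The fitted log2 fold change was 3.27 ± 0.47 (adjusted p = 0.0279). SORCS2, of the same receptor family, went from 0.942 and 1.53 CPM to 3.17 and 3.24 CPM, which did not pass the test (log2 fold change 1.36 ± 0.35, adjusted p = 0.0852).

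**Figure D1:**
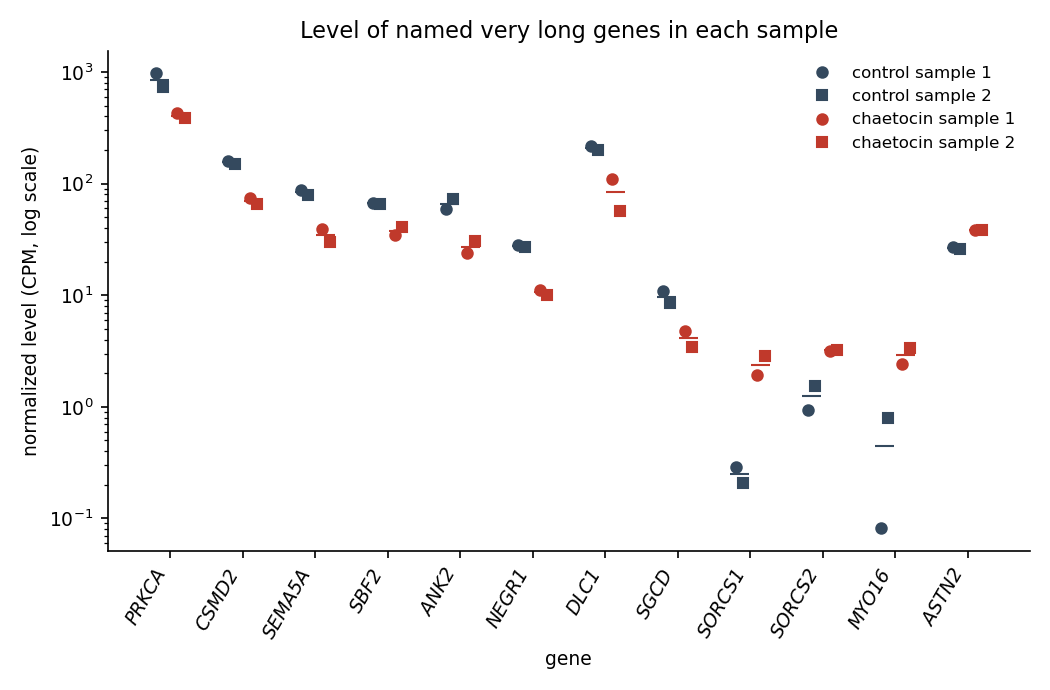
Normalized level in CPM (log axis) of 12 very long genes in each sample, with circles for sample 1 and squares for sample 2, control in dark blue and chaetocin in red, and short lines for the 2 group means. The 6 genes that fell are at the left with their chaetocin symbols below the controls, SORCS1 lies at 0.287 and 0.209 CPM in the controls and at 1.93 and 2.84 CPM after chaetocin, and DLC1, SGCD, SORCS2, MYO16 and ASTN2 did not pass edgeR's test.

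The length trend was first described over 13151 tested protein-coding genes of any span, each chaetocin sample being set against the mean of the controls. In chaetocin sample 1 the median log2 difference went from 0.12 for genes under 10 kb to -0.16 at 100 to 200 kb and -0.23 at 200 to 500 kb. In chaetocin sample 2 it was -0.047, -0.046 and -0.067 in the same classes. The 2 treated samples thus differed in this respect. Over the 13151 genes the difference in chaetocin sample 1 had a rank correlation of -0.23 with span, that in chaetocin sample 2 one of -0.014, and that of control sample 2 against control sample 1 one of 0.10. For the fitted log2 fold change it was -0.13, which became -0.012 without chaetocin sample 1 and -0.23 without chaetocin sample 2, so that it rested on chaetocin sample 1. The genes of a sample share 1 library, and chaetocin sample 1 had the lowest total, 21241984 counts. Exonic length gave the same picture, -0.26 and -0.014 in the 2 samples. In a linear description, a 10-fold longer span went with a log2 fold change of -0.076, and with 0.010 once exonic length and GC content were terms too. With all terms in, a 10-fold longer exonic length went with -0.23. By sample, span and exonic length then had -0.021 and -0.35 in chaetocin sample 1, and 0.015 and -0.061 in chaetocin sample 2. Span and exonic length rise together, and their parts were not tested further.

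Within this trend, the 226 tested very long genes had a median log2 fold change of -0.15, beside 0.008 for all genes tested. Taken by sample, chaetocin sample 1 gave a median difference of -0.15, chaetocin sample 2 one of -0.12, and control sample 2 against control sample 1 one of -0.042. Beside these values, the genes of 200 to 500 kb differed more between the treated samples, but the difference between the classes was not tested. Chaetocin sample 1 was below both controls for 118 of them (52.2%, beside 39.8% of all genes tested) and above both for 69 (30.5%, beside 40.9%). Chaetocin sample 2 was below both for 111 (49.1%, beside 40.9%) and above both for 79 (35.0%, beside 41.1%). In 22 genes (9.73%, beside 16.7% of all genes tested) 1 treated sample was below and the other above both controls. NRG1, a ligand of ERBB receptors singled out after its values were seen, is such a gene, with 64.1 and 55.4 CPM in the controls, 68.9 CPM in chaetocin sample 1 and 20.7 CPM in chaetocin sample 2. UTRN, the dystrophin relative utrophin, also chosen after its values were seen, went the other way, with 132 and 153 CPM in the controls and 96.1 and 177 CPM after chaetocin.

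**Figure D2:**
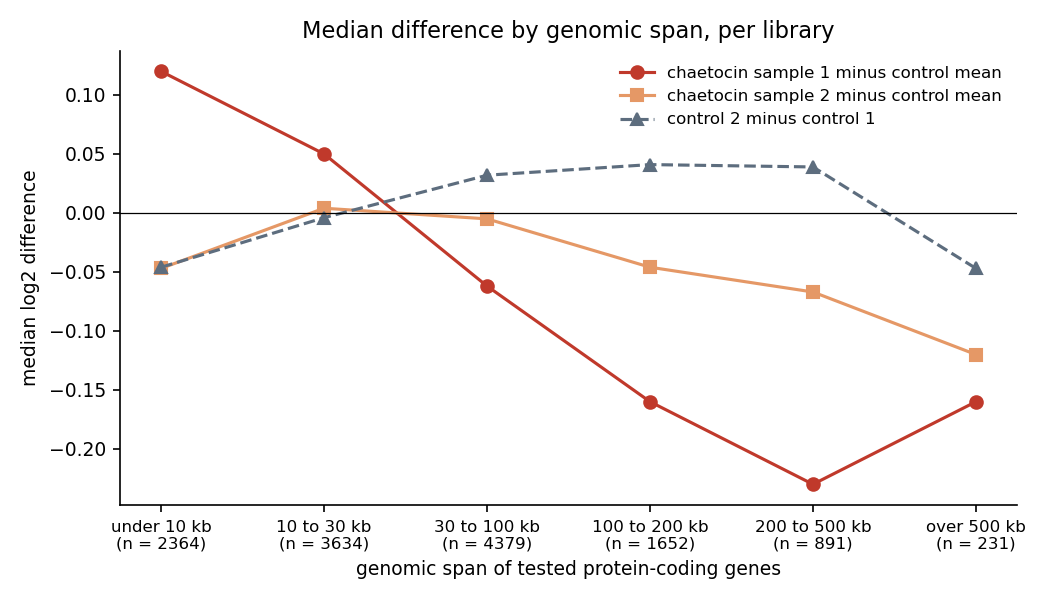
Median log2 difference (vertical axis) of tested protein-coding genes in 6 classes of genomic span (horizontal axis, with the number of genes), for each chaetocin sample minus the control mean and for control sample 2 minus control sample 1. The line of chaetocin sample 1 goes from 0.12 to -0.23 and back to -0.16 above 500 kb, and the line of chaetocin sample 2 stays between -0.12 and 0.004.

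The 184 tested genes of 500 kb to 1 Mb had a median log2 fold change of -0.18, and the 42 over 1 Mb had one of 0.038. CADM2, CNTNAP2, ERBB4 and MACROD2, among the 42, passed the filter only through the chaetocin samples, so no order of the medians is read from this. Among the 226 genes the rank correlation of log2 fold change with span was 0.11. The 6 longest genes tested were CNTNAP2, PTPRD, DMD, DLG2, MACROD2 and EYS, and none passed the test, by edgeR or DESeq2, or had an unadjusted p under 0.05. CNTNAP2, a neurexin-like adhesion protein of 2304997 bp, had 0.287 and 0.209 CPM in the controls and 0.551 and 0.422 CPM after chaetocin. PTPRD, a receptor tyrosine phosphatase of 2298478 bp, had 25.0, 24.9, 18.9 and 27.3 CPM in the same order, so that its groups overlapped. DMD, which encodes dystrophin, had 1.02 and 1.84 CPM in the controls and 1.70 and 1.66 CPM after chaetocin. On the log2 scale, the change of the synaptic scaffold gene DLG2 was 0.78 ± 0.45 (adjusted p = 0.365), that of the mono-ADP-ribosyl hydrolase gene MACROD2 0.51 ± 0.60 (adjusted p = 0.683), and that of the photoreceptor matrix gene EYS 0.88 ± 0.39 (adjusted p = 0.255). Of these 6, PTPRD alone had a level above 10 CPM.

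The change of a very long gene also went with its level. The rank correlation of log2 fold change with mean level was -0.50 over the 226 genes, which include those that entered through the chaetocin samples. Over the 113 genes of at least 10 CPM it was -0.33, beside 0.064 with span. Over the 9162 protein-coding genes of at least 10 CPM, level and span gave much the same values, -0.20 and -0.19. There, chaetocin sample 1 had -0.14 with level and -0.32 with span, and chaetocin sample 2 had -0.21 and -0.027. For the 20 very long genes above 100 CPM the median was -0.37. Of these, 19 had a log2 fold change below 0, and both treated samples lay below both controls in 15 (75.0%, beside 46.2% of protein-coding genes at this level) and above both in 0 (beside 11.1%). Protein-coding genes of 200 to 500 kb above 100 CPM had nearly the same values, a median of -0.35, with 66.7% below both controls and 2.78% above. Between 10 and 100 CPM the median of 93 genes was -0.24, and between 1 and 10 CPM that of 76 genes was -0.12. The 37 genes under 1 CPM had a median of 0.88, but the filter lets a gene of this level in through the group where it is high, so this value is no support for a rise. At 10 CPM and above, medians were -0.27 for 113 very long genes, -0.21 for 619 protein-coding genes of 200 to 500 kb and -0.022 for 1417 under 10 kb. In chaetocin sample 1 the same 3 classes had medians of -0.32, -0.30 and 0.071, and in chaetocin sample 2 medians of -0.21, -0.15 and -0.12.

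**Figure D3:**
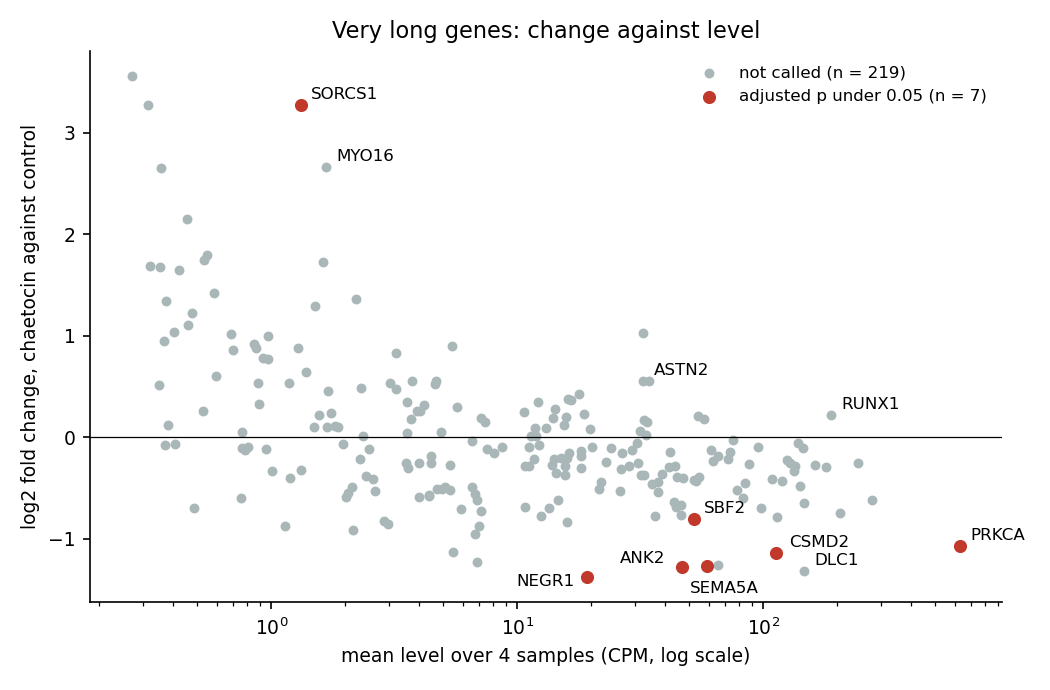
Log2 fold change of chaetocin against control (vertical axis) against the mean level over the 4 samples in CPM (horizontal log axis) for the 226 tested very long genes, with the 7 that passed the test in red. Above 100 CPM 19 of 20 genes lie below 0, RUNX1 being the exception, and under 1 CPM most lie above 0.

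The very long genes with the highest levels were PRKCA, CDH13, SPOCK1, KCNMA1, EXOC4 and RUNX1 by CPM. Per exonic kb, PRKCA was followed by SPOCK1 with 39.3, CDH13 with 24.8 and ADK with 22.6 CPM. CDH13, a cadherin anchored by a lipid, had 363 and 309 CPM in the controls and 235 and 202 CPM after chaetocin (log2 fold change -0.62 ± 0.17, adjusted p = 0.0969). The proteoglycan gene SPOCK1 had 278 and 253 CPM against 212 and 234 CPM (-0.25 ± 0.15, adjusted p = 0.403). KCNMA1, the pore of the large-conductance calcium-activated potassium channel, had 271 and 243 CPM against 187 and 119 CPM (-0.75 ± 0.22, adjusted p = 0.113). The exocyst gene EXOC4 had 193 and 203 CPM against 132 and 192 CPM, so that 1 treated sample lay near the controls. RUNX1, a transcription factor of blood development that spans 1216867 bp, went against the trend with 181 and 167 CPM in the controls and 226 and 179 CPM after chaetocin (0.22 ± 0.17, adjusted p = 0.501). Its value rested on chaetocin sample 1, with a log2 fold change of 0.047 without that sample and 0.37 without chaetocin sample 2. None of these 5 passed edgeR's test, while DESeq2 called CDH13 (adjusted p = 0.0212, range over the alternatives 0.00431 to 0.576) and KCNMA1 (adjusted p = 0.0205, range 0.000180 to 0.318) lower.

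A smooth curve of log2 fold change on span over the protein-coding genes stood at -0.20 at 700 kb and was below 0 at the span of each of the 226 genes. In sign, 138 very long genes (61.1%, beside 52.3% of tested protein-coding genes below 0) went with it and 88 against it, the latter including the 16 that passed the filter only through the chaetocin samples. At 700 kb the curve of chaetocin sample 1 stood at -0.23 and that of chaetocin sample 2 at -0.15. Both treated samples lay below their curves for 71 genes (31.4%, beside 33.9% of tested protein-coding genes) and above them for 88 (38.9%, beside 35.3%).

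Among genes that went with the trend without passing edgeR's test, DLC1 had the lowest log2 fold change. It encodes a GTPase-activating protein and had 217 and 202 CPM in the controls and 111 and 57.1 CPM after chaetocin (-1.32 ± 0.28, adjusted p = 0.0555). ADAMTSL1, a secreted protein of the matrix, had 102 and 82.8 CPM against 54.3 and 23.4 CPM (-1.26 ± 0.35, adjusted p = 0.109). In both genes chaetocin sample 2 had the lower value, and without it the log2 fold changes were -0.93 and -0.77, against -1.87 and -1.98 without chaetocin sample 1. ADAMTSL1 passed in 5 of 11 alternatives, with adjusted p of 2.95e-07 to 0.241. SGCD, the muscle membrane protein delta-sarcoglycan, had 10.8 and 8.49 CPM against 4.78 and 3.46 CPM (-1.23 ± 0.26, adjusted p = 0.0552). SEMA6D, a transmembrane semaphorin like SEMA5A, had 8.48 and 6.65 CPM against 2.80 and 4.03 CPM (-1.13 ± 0.28, adjusted p = 0.0769). The groups of these 4 genes did not overlap. DESeq2 called DLC1 (adjusted p = 5.47e-05, range over the alternatives 4.11e-11 to 0.0683), SGCD (0.00655, range 0.000277 to 0.151) and SEMA6D (0.0301, range 0.00279 to 0.273) lower. DLC1 passed in 7 of 11 alternatives.

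Among genes that went against the trend without passing edgeR's test, MYO16, an unconventional myosin of neurons, had the highest log2 fold change at a mean of at least 1 CPM. It had 2 and 23 counts in the controls and 53 and 119 counts after chaetocin (2.66 ± 0.67, adjusted p = 0.0816), so the controls alone differed several-fold, and the log2 fold change was 1.84 without control sample 1. No fold is given without control sample 2, which leaves 2 control counts. Only 1 control of MYO16 reached the cutoff of the filter, so the gene passed with the help of the chaetocin samples and its values are a description. ASTN2, which acts in neuron migration along glia, had 27.0 and 25.9 CPM in the controls and 38.6 CPM in both treated samples (0.55 ± 0.15, adjusted p = 0.0974). ADGRV1, a very large adhesion receptor of hair cells, had 19.9 and 22.9 CPM against 28.2 and 59.0 CPM (1.03 ± 0.31, adjusted p = 0.122), and its log2 fold change was 0.39 without chaetocin sample 2 and 1.46 without chaetocin sample 1. LUZP2 rested on 1 sample, with 17 and 24 counts in the controls, 21 in chaetocin sample 1 and 143 in chaetocin sample 2. CSMD3, of the family of CSMD2, had 4.63 and 2.96 CPM against 6.89 and 7.18 CPM (0.90 ± 0.28, adjusted p = 0.130). The 2 CSMD genes thus had opposite signs, of which only that of CSMD2 passed the test. DCDC1, AKAP6 and KSR2 had log2 fold changes of 1.29, 0.83 and 0.64 at adjusted p of 0.156, 0.202 and 0.460. KSR2 too rested on 1 sample, with a log2 fold change of 0.073 without chaetocin sample 1. DESeq2 called MYO16 (adjusted p = 0.00828, range over the alternatives 2.09e-06 to 0.107) and ADGRV1 (0.0201, range 1.45e-05 to 0.151) higher.

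The 3 genes with the highest fitted changes under 1 CPM were looked at after their values were seen, and all 3 passed the filter only through the chaetocin samples. The synaptic scaffold gene DLGAP2 had 2 and 0 counts in the controls and 12 and 16 after chaetocin. RGS6, a regulator of G protein signalling, had 1 and 2 against 11 and 23, and the growth factor receptor gene ERBB4 had 2 and 3 against 14 and 21. No fold is given for these 3 genes, since their controls lay at or under 3 counts, and none passed the test.

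In the lists of roles, counts of genes with both treated samples below or above both controls stand beside 26.0% and 26.8% of all genes tested, and counts at an unadjusted p under 0.05 beside 9.43% lower and 10.9% higher. Counts called by edgeR stand beside 0.743% of all genes lower and 1.11% higher, and those called by DESeq2 beside 2.93% and 2.35%. By role, the very long genes of adhesion and guidance held 2 of the 6 that fell, NEGR1 and SEMA5A (9.09% of those tested, beside 0.743% of all genes tested). Of 22 tested, both treated samples lay below both controls in 10 (45.5%) and above both in 5 (22.7%), 2 of the 5 having passed the filter only through the chaetocin samples, and the median log2 fold change was -0.11. Among receptors and enzymes of signalling, 12 of 32 lay below (37.5%) and 8 above (25.0%), 4 of the 8 having passed the filter only through the chaetocin samples, and PRKCA fell. Their median was -0.26, with -0.058 for chaetocin sample 1 and -0.36 for chaetocin sample 2. The largest log2 fold change against the trend in that list at 1 CPM or more was that of PDE10A, a cyclic nucleotide phosphodiesterase (0.49 ± 0.32, adjusted p = 0.429). Of 20 genes of transcription and chromatin, 7 lay below (35.0%) and 6 above. By edgeR 0 passed the test, 5 were lower and 2 higher at an unadjusted p under 0.05, and DESeq2 called 1 lower. In that list SOX5, a SOX family factor, had 9.79 and 8.21 CPM against 5.10 and 4.73 CPM (-0.87 ± 0.23, adjusted p = 0.0867). The histone deacetylase gene HDAC9 had 21.3 and 34.5 CPM against 39.6 and 42.4 CPM (0.55 ± 0.23, adjusted p = 0.219). Its log2 fold change was 0.24 without control sample 1 and 0.93 without control sample 2. Of the RNA-binding genes 2 were tested and none had an unadjusted p under 0.05, with RBMS3 at -0.57 ± 0.27 (adjusted p = 0.285).

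The list of cytoskeleton, scaffold and trafficking genes was the largest, with 46 tested. In 34 of them (73.9%, beside 61.1% of the 226 and 49.1% of all genes tested) the log2 fold change was below 0, both treated samples lay below both controls in 20 (43.5%) and above in 6, the median was -0.21, and ANK2 fell. Chaetocin sample 1 had a median difference of -0.33 over these genes, and chaetocin sample 2 one of -0.072. Of 18 channels, transporters and neurotransmitter receptors, 7 lay below (38.9%) and 3 above (16.7%). By edgeR 0 passed the test, 4 were lower and 1 higher at an unadjusted p under 0.05, and DESeq2 called 1 lower. In this list the GABA receptor subunit gene GABRG3 had 11.0 and 6.68 CPM against 5.61 and 3.63 CPM (-0.95 ± 0.32, adjusted p = 0.154). Leaving out 1 sample gave GABRG3 log2 fold changes of -1.28 to -0.55. The glutamate receptor subunit gene GRIK2 had 1.31 and 0.661 CPM against 0.873 and 1.89 CPM, with overlapping groups. The list of matrix, proteoglycan, glycan and large sorting or membrane proteins had a median of 0.15 over 18 genes. Its treated samples had medians of opposite sign, -0.14 and 0.32. Of these genes 8 lay below (44.4%) and 7 above (38.9%), 2 of the 7 having passed the filter only through the chaetocin samples, CSMD2 fell, and SORCS1 was called higher. Of 16 genes of protein turnover, repair and metabolism, 6 lay below (37.5%) and 3 above (18.8%), 2 of the 3 having passed only through the chaetocin samples. By edgeR 0 passed the test, 2 were lower and 1 higher at an unadjusted p under 0.05, and DESeq2 called 1 lower. GMDS, an enzyme of GDP-fucose synthesis, had -0.69 ± 0.23 (adjusted p = 0.148), and the carbohydrate kinase gene FGGY 0.20 ± 0.20 (adjusted p = 0.620). The remaining 57 tested genes stood in no list, with 17 below (29.8%) and 15 above (26.3%), and held SBF2, which fell.

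Genes at common fragile sites were the list with the highest median, 0.17 over 17 tested, and include CNTNAP2, DMD, DLG2 and MACROD2 of the longest genes. Both treated samples lay above both controls in 8 (47.1%, beside 26.8% of all genes) and below in 4 (23.5%, beside 26.0%). The 8 include CNTNAP2 and MACROD2, which passed the filter only through the chaetocin samples, so neither the count nor the median supports a rise. By edgeR 0 passed the test, 1 was lower and 0 higher at an unadjusted p under 0.05, and DESeq2 called 0. LRP1B, a giant lipoprotein receptor of 1900279 bp, had 11.4 and 10.1 CPM in the controls and 13.2 and 14.1 CPM after chaetocin (0.35 ± 0.19, adjusted p = 0.352). NAALADL2 lay at the other end with 2.91 and 1.91 CPM against 1.88 and 1.35 CPM (-0.59 ± 0.37, adjusted p = 0.416). The median level of the list was 3.92 CPM, beside 9.71 CPM over all 226 genes. The part of the level in this median was not tested.

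**Figure D4:**
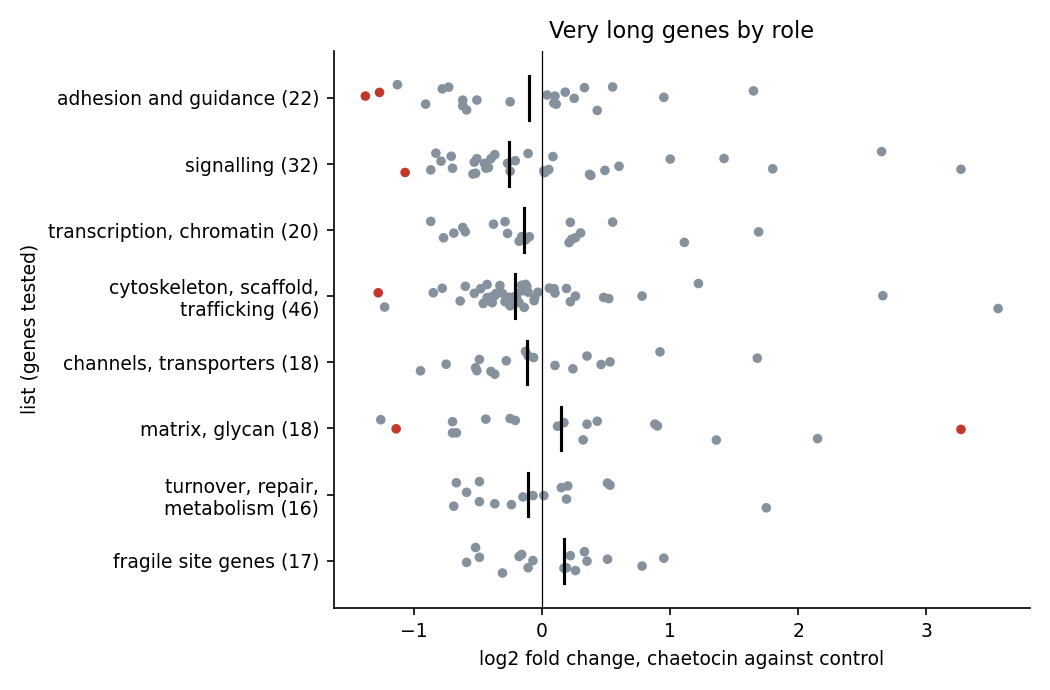
Log2 fold change of chaetocin against control (horizontal axis) of the tested very long genes in 8 lists (vertical axis, with the number tested), 1 point per gene with those that passed the test in red and the median of each list as a black bar. Medians run from -0.26 for signalling to 0.17 for fragile site genes, and a gene can stand in more than 1 list.

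Genes of topoisomerases and transcription elongation are not very long genes but act on them. Of 48 listed, 47 were tested, and the median log2 fold change was -0.034. By edgeR 0 were called in either direction, beside 0.743% of all genes lower and 1.11% higher. DESeq2 called 1 lower, beside 2.93% of all genes. At an unadjusted p under 0.05, 3 were lower and 1 higher, out of 47, beside 9.43% and 10.9% of all genes. TOP1, the topoisomerase that relieves supercoils ahead of the polymerase, had 297 and 331 CPM in the controls and 222 and 173 CPM after chaetocin (-0.67 ± 0.18, unadjusted p = 0.00502, adjusted p = 0.0895). TCEA1, which restarts stalled polymerase, had 182 and 171 CPM against 140 and 121 CPM (-0.43 ± 0.15, adjusted p = 0.160). In the other direction, TOP2A, a topoisomerase of dividing cells, had 469 and 505 CPM against 572 and 732 CPM (0.42 ± 0.19, adjusted p = 0.255). TDP2, which removes trapped topoisomerase from DNA, had 30.5 and 30.7 CPM against 33.5 and 54.4 CPM (0.53 ± 0.22, adjusted p = 0.238).

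Totals ranged from 21241984 to 32590479 counts per sample. Before TMM scaling, 3 counts, taken as the floor for a gene at 0, equal 0.0921 to 0.141 CPM of these totals. After it they equal 0.0844 CPM in chaetocin sample 2 and 0.138 CPM in chaetocin sample 1, the lowest and highest of the 4 samples. This covers counting error only. Markers of glioma and astroglial cells were mostly present, with VIM at 1150 to 2800 CPM and CD44 at 797 to 2650 CPM, but AQP4 had 0 counts in every sample, and SOX2 and S100B had 0 in both controls. Their summed level was 6320 to 7570 CPM in the controls and 2580 to 4670 CPM after chaetocin. Of 9 tested, edgeR called 2 lower, beside 0.743% of all genes, and DESeq2 called 4 lower, beside 2.93%. At an unadjusted p under 0.05, 6 were lower and 1 higher, beside 9.43% and 10.9%. Of 9 tested leukocyte markers out of 27, 4 were called higher, beside 1.11% of all genes. ITGAM and PTPRC, with 0 and 1 counts in the controls, could pass the filter only through the chaetocin samples. CD53 had 24 and 22 counts in the controls and 99 and 166 after chaetocin. FCER1G had 15 and 26 against 67 and 96, and both genes reached the cutoff in the controls too. Over the 27 genes, tested or not, both treated samples lay above both controls in 9 and below in 1. The shares of all genes tested were 26.8% and 26.0%. The summed level of the list was 52.7 to 53.8 CPM in the controls and 55.4 to 67.4 CPM after chaetocin. AIF1, CD3E, CD7, CD8A, MS4A1 and TYROBP had 0 counts throughout. Neuron markers summed to 95.4 to 96.7 CPM in the controls and 80.5 to 84.2 CPM after chaetocin, with 0 of 7 tested called by either tool, 1 lower and 1 higher at an unadjusted p under 0.05, and ELAVL4, INA and SLC17A6 at 0. Oligodendrocyte markers summed to 3.72 to 4.18 CPM and 2.45 to 3.49 CPM, with 0 of 2 tested called by either tool or at an unadjusted p under 0.05, and OLIG1 and SOX10 at 0. The part of other cell types in the changes of the very long genes was not tested.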

How the data were processed

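RNA of 4 samples was polyA-selected, amplified over 15 PCR cycles and sequenced as 50 bp single-end reads. The authors deposited whole-number read counts per gene, 1 table of 57905 genes per sample, not normalized. Their notes name cutadapt, TopHat2, SAMtools and GRCh37. The counting tool, annotation release and strand setting are not given in the sources used here. Spans, exons and coordinates came from GENCODE release 29 on GRCh38, to which 52338 identifiers matched, so that spans can differ slightly from those of the build of the counts.

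Counts were filtered (filterByExpr, minimum 10), scaled by TMM and tested with edgeR 4.0.16 (robust quasi-likelihood fit of the 2 groups, R 4.3.3) over all 16416 genes, with Benjamini-Hochberg adjustment at 0.05. SE is the log2 fold change divided by the root of F. CPM are TMM-scaled, and differences per sample used log2 CPM with a prior count of 2. The curve is a lowess with a fraction of 0.3. The fit was tested on simulated counts. With 2 samples per group an exact permutation test cannot go below 0.333. DESeq2 1.42.0, other scalings and filters, a replicate block and leaving out each sample were alternatives.

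Named genes were those called, and then those not called but not overlapping at 1 CPM or more, by size of change. Together with the called ones these came to at most 10 per direction. Also named were the 6 longest tested, the 6 of highest CPM, and the largest fall and rise per role list at 1 CPM or more. Genes and lists were chosen with earlier results of these data known. In the lists, DPYD (metabolism) also stands under matrix, AFF3 (transcription) under cytoskeleton, and GPC6 in 2 lists. A few genes of the lists are not reported here by name.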

Additional observations from a re-analysis of the deposited data

How the results depend on the processing

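The number of very long genes called lower and higher was 6 and 1. It was 28 and 9 without a filter on low counts (12.0% and 3.85%, beside 2.39% and 2.48% of all genes), 18 and 3 by DESeq2 (7.89% and 1.32%, beside 2.93% and 2.35%), and 4 and 0 where every sample had to hold 10 counts or more (1.99% and 0%, beside 0.552% and 0.787%), so that SORCS1 was not tested. A span over 1 Mb gave 0 and 0, with 6 and 3 at an unadjusted p under 0.05 and 2 and 0 by DESeq2, and 200 summed counts left 0 called higher. Leaving out a sample gave 6 to 41 lower and 1 to 14 higher, with median log2 fold changes of -0.18 to -0.12. The median of -0.15 was -0.076 with upper-quartile scaling, beside 0.085 for all genes, and the medians of chaetocin samples 1 and 2 were then -0.090 and -0.034. It was -0.19 with at least 10 counts in every sample, -0.25 with 200 summed counts and 0.038 over 1 Mb. The cause was not tested. The rank correlation with span over protein-coding genes was -0.19 at 10 CPM or more, an alternative chosen after seeing the data. PRKCA lost its call under the minimum of 10 counts per sample and without control sample 1, and SBF2 under both of these, upper-quartile scaling and without control sample 2. Signs turned for DMD without control sample 1 (-0.15, range -0.15 to 0.70), GRIK2 without chaetocin sample 2 (-0.17, range -0.17 to 1.07) and PTPRD without chaetocin sample 1 (0.13, range -0.41 to 0.13).

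The labels share replicate numbers but do not pair the samples. Deviations of same-numbered samples correlated at 0.191. The value for other-numbered samples, -0.191, is the negative of this by construction and adds nothing to it. With a replicate block, 35 very long genes were called lower and 12 higher (15.5% and 5.31%, beside 6.41% and 6.31% of all genes), the median was -0.16, and the 7 calls held.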
